A study of Mus musculus with 16 samples.

Results

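The vacuolar ATPase and the proteins of the lysosomal membrane were followed through 36 genes listed by name, of which 35 had more than 10 counts in at least 4 of the 16 libraries and were tested, out of 14565 genes that passed the same count rule. The list holds 18 genes of the vacuolar ATPase (9 of the V1 sector, 7 of the V0 sector and 2 accessory proteins), 15 genes of other lysosomal membrane or membrane-linked proteins, and the 3 MiT/TFE transcription factors Tfeb, Tfe3 and Mitf. Atp6v0d2, a V0 subunit best known from osteoclasts and macrophages, had 0 to 7 counts per library and was not tested. Atp6v0c, just inside the rule, passed 10 counts in 6 of the 16 libraries, with 4 to 29 counts per library.

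RNA was sequenced from CD11b+ brain cells of female C57BL/6J mice, 1 library per mouse, with 4 libraries of CON, 5 of MAL and 7 of MAL-BG. Mice entered the study at 3 weeks of age and stayed on their diet for about 1 month, CON on standard chow and both MAL and MAL-BG on an isocaloric diet low in protein and fat. MAL-BG mice were also gavaged 3 times over 5 days with a mix of 7 commensal E. coli and Bacteroidales bacteria, 2 weeks into the diet, and CON and MAL mice received gavages of PBS. No group received the bacteria on standard chow, so the comparisons ask whether the bacteria on the malnourished diet (MAL-BG versus MAL), both together (MAL-BG versus CON) or the diet alone (MAL versus CON) went with a difference. CD11b, an integrin chain of microglia and other myeloid cells, was used to hold the cells on magnetic beads. Tissue was cortical according to the labels and whole cerebra according to the study's methods.

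The vacuolar ATPase is a rotary proton pump. Its cytosolic V1 sector hydrolyses ATP, its membrane-bound V0 sector carries the protons into the lumen, and the 2 sectors come apart and rejoin to set the rate of acidification. The low pH that it builds drives the hydrolases of the lysosome, and its proton gradient powers transporters that return amino acids and sugars to the cytosol. In microglia, which engulf synapses, debris and dying cells, this compartment handles what is taken up. TFEB and TFE3 bind an E-box with the core CACGTG, called the CLEAR element, in the promoters of many genes of the lysosome and of the pump itself.

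RefSeq promoters, from 250 bases before to 50 bases after the start of transcription on GRCm38.p6, were found for 29 of the 36 members. The palindrome CACGTG, which reads alike on both strands, stood in at least 1 promoter of 7 of these 29 genes (24.1%), against 11.2% of the 11034 tested genes with a promoter and 7.15% of all 32851 promoters. The same 7 genes also held the longer form TCACGTG on either strand, which overlaps the palindrome and was found in 6.57% of the tested genes. A letter match of this kind says nothing about binding. PU.1 is a transcription factor of myeloid cells, and the ETS box GAGGAAGT, a form of its binding site, was found on either strand in 0 of the 29 members and in 3.72% of tested genes, which says only that these letters are not in these windows.

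The stretches that hold the boxes are shown because they include members that rose, a member that fell and members that did not pass the test. Capitals mark CACGTG, and each stretch runs 5′ to 3′ on the strand of its gene. Lamp1 had 4 boxes within 61 bases of its start, more than any other member, at chr8:13159080-13159160 on the plus strand. Mcoln1 (chr8:3500428-3500486, plus strand) and Atp6v0b (chr4:117887330-117887385, minus strand) had 2 each. Clcn7 had 1 box before its start, at chr17:25133356-25133390 on the plus strand, and 1 box 8 bases into the gene that is not shown. Atp6v1a (chr16:44139378-44139410, minus strand), Atp6v0d1 (chr8:105566050-105566079, minus strand) and Atp6v0e (chr17:26676387-26676416, plus strand) had 1 each. Of the printed bases, 30 in Mcoln1, 30 in Atp6v0e and 4 in Atp6v0b lie in exons of the same gene in the GENCODE annotation. The Atp6v0d1 stretch has 0 such bases, although it runs to base 15 after its RefSeq start.
Lamp1: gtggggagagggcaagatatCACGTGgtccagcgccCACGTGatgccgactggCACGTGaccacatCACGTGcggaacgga
Mcoln1: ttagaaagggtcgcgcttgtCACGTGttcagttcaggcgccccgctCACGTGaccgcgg
Atp6v0b: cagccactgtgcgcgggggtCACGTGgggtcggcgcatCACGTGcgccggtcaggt
Clcn7: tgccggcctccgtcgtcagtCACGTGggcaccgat
Atp6v1a: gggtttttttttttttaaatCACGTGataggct
Atp6v0d1: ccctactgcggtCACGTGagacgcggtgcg
Atp6v0e: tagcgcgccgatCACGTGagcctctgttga

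The 7 genes that share the box did not share a direction. Lamp1, Atp6v0b and Atp6v0d1 rose in MAL-BG against both groups, Mcoln1 rose against CON, Atp6v1a fell against CON, and Clcn7 and Atp6v0e passed neither test, on library sizes scaled by the TMM method of edgeR.

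Library totals were 10312703 to 13461574 counts in CON, 10864121 to 12819982 in MAL and 14191791 to 18705202 in MAL-BG, so each MAL-BG library was deeper than each CON and MAL library. Levels below are given as CPM, the count of a gene divided by the TMM-scaled library size and brought to a common total. The 15 microglia markers, none at 0, had a summed level of 20119 to 32526 CPM in CON, 20673 to 35220 CPM in MAL and 42793 to 59272 CPM in MAL-BG, and 11 of 15 rose against CON. Other lists had lower sums in MAL-BG than those of CON, which held for choroid plexus (1492 to 13370.0 against 10929 to 42161 CPM, 14 of 14 markers fell), neurons (59.8 to 146 against 192 to 793 CPM, 14 of 16 fell), ependyma (44.9 to 150.5 against 174.5 to 304 CPM, 8 of 10 fell), astrocytes (169 to 322 against 297 to 665 CPM, 5 of 10 fell) and monocytes (394 to 1582 against 1264.5 to 1853 CPM, 5 of 10 fell). All 6 differences had an adjusted p of 0.0333 or less (two-sided exact permutation tests of the summed level, Benjamini-Hochberg over 33 tests). By the same test against MAL, microglia, neurons, astrocytes and monocytes passed. Choroid plexus (adjusted p = 0.0596) and ependyma (adjusted p = 0.0576) did not. Lymphocyte markers were low and higher in MAL-BG (55.7 to 97.6 against 25.7 to 44.9 CPM, adjusted p = 0.025, exact permutation test, 3 of 7 tested rose). Neutrophil markers ran from 600.3 to 14267 CPM in MAL-BG against 489 to 1229 CPM in CON, with the highest values in replicates 5 and 7, and 11 of 12 tested rose. Their summed level did not pass against CON (adjusted p = 0.176) or against MAL (adjusted p = 0.13, exact permutation tests). Markers of oligodendrocytes (508 to 1232 against 426 to 1091 CPM, 3 of 10 rose and 1 fell), of endothelium and mural cells (1359.6 to 4459 against 689 to 2616 CPM, 2 of 12 rose and 1 fell) and of border macrophages (980.1 to 1461 against 998 to 2552 CPM, 2 of 10 fell) overlapped between the groups. No list was at 0 in any marker it has in the table, no list differed between MAL and CON (smallest adjusted p = 0.498, exact permutation tests), and the part of these markers in the results below was not tested. In bulk RNA, fewer cells of a type and less RNA per cell cannot be told apart.

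**Figure D1:**
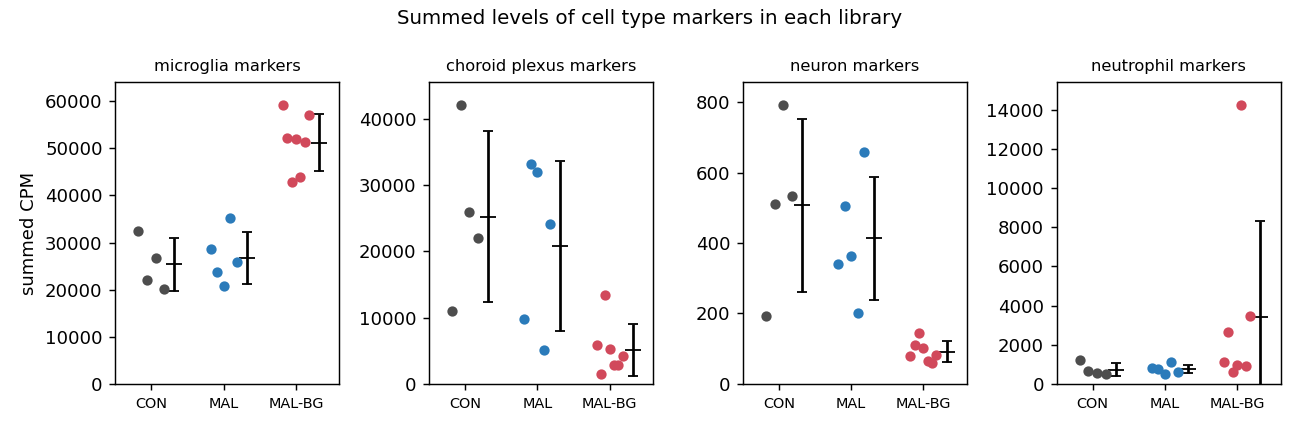
Summed CPM of 4 lists of cell type markers (vertical axes, linear, from 0), with a point for each library of CON (n = 4), MAL (n = 5) and MAL-BG (n = 7) and black bars for the mean ± SD, cut at 0. The microglia sum lay between 42793 and 59272 CPM in the MAL-BG libraries, above all others, while the neutrophil sum was highest in MAL-BG replicate 5 at 14267 CPM.

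Of the 35 members tested, 21 rose and 2 fell in MAL-BG against CON, and 12 did not pass the test (edgeR's quasi-likelihood test over all genes, adjusted p under 0.05 after Benjamini-Hochberg adjustment). The share that rose was 60.0%, and 19.8% of all genes tested rose by the same rule. The share that fell was 5.71%, and 25.2% of all genes fell. Against MAL, 22 members (62.9%) rose and 1 (2.86%) fell, where 20.2% of all genes rose and 24.1% fell. Most rises were small. With the study's further threshold of 0.58 on the absolute log2 fold change, 8 members were higher and 1 was lower as DEGs against CON (11.4% and 21.7% of all genes), and 9 were higher and 1 lower against MAL (10.2% and 20.2% of all genes). The median log2 fold change of the members was 0.40 against CON, with -0.04 for all genes, and 0.41 against MAL, with -0.03 for all genes.

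Library by library, all 7 MAL-BG values lay above all 9 CON and MAL values in 7 members (6.17% of all genes), which were Atp6ap1, Lamp1, Laptm5, Npc2, Scarb2, Ostm1 and Tfeb. All 7 lay below the other 9 in 1 member, Atp6v1g2 (6.36% of all genes). Both MAL-BG comparisons share the 7 MAL-BG libraries, so their calls are given side by side and not as separate evidence. Side by side, 20 members rose against both groups, Mcoln1 rose against CON alone, Atp6v1g1 and Cd63 rose against MAL alone, Atp6v1g2 fell against both, Atp6v1a fell against CON alone, and 10 passed in neither. No difference between the comparisons was tested for these genes.

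The calls of weakly changed members depended on the method. With offsets for transcript length and GC content, 18 of the 23 calls against CON and 18 of the 23 against MAL stood. Those lost against CON were Atp6v1a, Atp6v0d1, Atp6ap2, Cd68 and Tmem192, and those lost against MAL were Atp6v1g1, Atp6v0d1, Cd68, Ctns and Slc17a5. The same offsets added a rise of Tfe3 and a fall of Atp6v1f against CON, and rises of Tfe3 and Mcoln1 against MAL. With library totals in place of TMM, 13 members rose in each comparison. Atp6v1b2, Atp6v0a1, Atp6v0d1, Atp6ap2, Lamp2, Cd68, Npc1 and Mcoln1 then lost their rise against CON, and Atp6v1b2, Atp6v1g1, Atp6v0d1, Lamp2, Cd63, Cd68, Npc1, Ctns and Slc17a5 lost theirs against MAL.

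**Figure D2:**
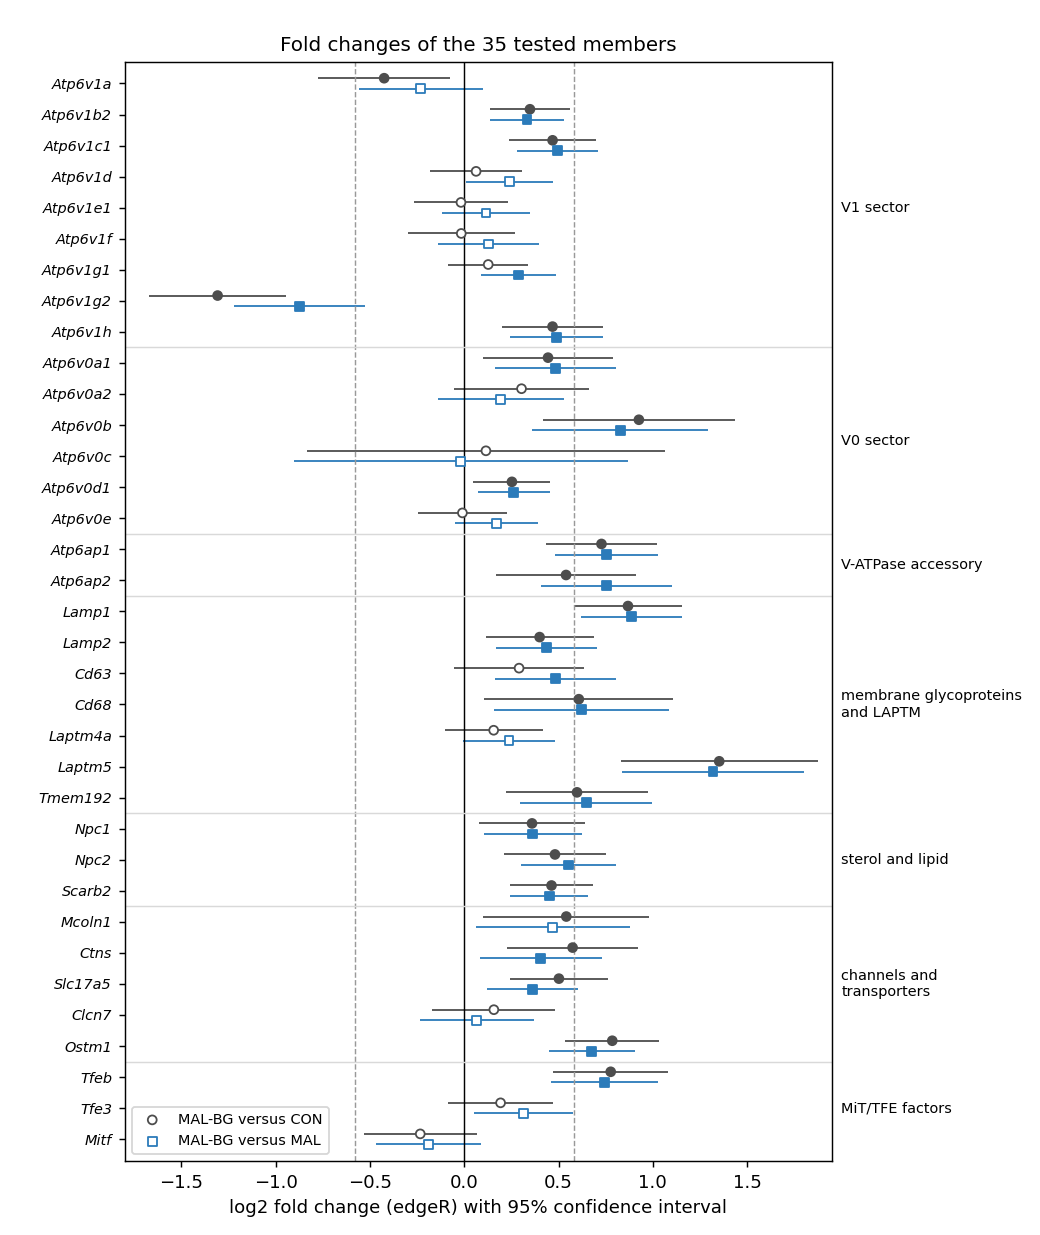
Log2 fold changes of MAL-BG versus CON (grey circles) and MAL-BG versus MAL (blue squares) for the 35 tested members (vertical axis, grouped by role), with bars for the 95% confidence interval, filled symbols for an adjusted p under 0.05 (edgeR) and dashed lines at 0.58 on either side of 0. Laptm5 stands furthest to the right at 1.35 and Atp6v1g2 furthest to the left at -1.31 on TMM-scaled libraries, and with library sizes set by microglia markers all but Laptm5 lay below 0.

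The level of the members relative to microglia markers went the other way. When library sizes were set by the summed counts of the 15 microglia markers instead of TMM, the median log2 fold change of the members was -0.67 against CON and -0.54 against MAL, 26 and 25 members fell, and 0 and 1 rose, the 1 being Laptm5. That scaling moved the median of all genes to -1.08 and -0.98. By the DEG rule 20 and 16 of the 35 members were lower, and so were 11081 and 10510 of the 14565 genes tested. A scaling of whole libraries shifts all genes by nearly the same amount, so the distance between the members and all genes could hardly change. The median of the members stood 0.44 above that of all genes against CON with TMM, and 0.41 to 0.45 above under the other 5 scalings. Against MAL it stood 0.43 above with TMM and between 0.43 and 0.445 above under the other 5. In both comparisons 32 of 35 members lay above the median of all genes with TMM and 31 with the microglia markers. With length and GC offsets the number was 27 against CON and 30 against MAL. Without CON replicate 1 it was 28 against CON. The microglia list itself had a median log2 fold change of 0.79 against CON and 0.81 against MAL with TMM, so the median of the members lay between that of all genes and that of the microglia markers.

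**Figure D3:**
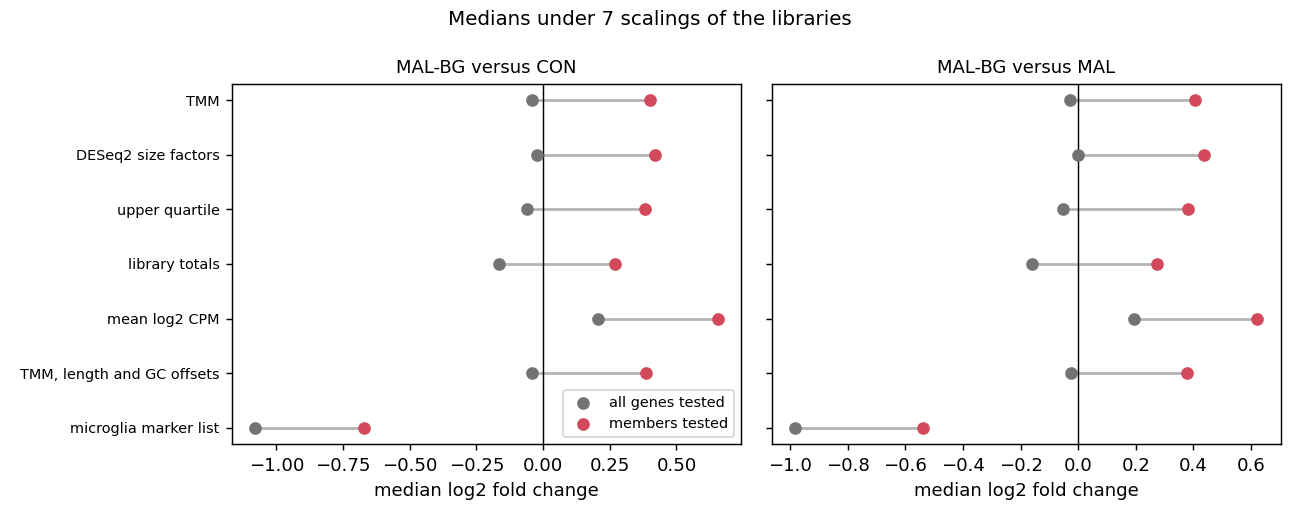
Median log2 fold change (horizontal axes) of the members tested (red) and of all genes tested (grey) under 7 ways of scaling the libraries (vertical axis), for MAL-BG versus CON on the left and MAL-BG versus MAL on the right. The members' median is above 0 under 6 of the scalings and below 0 (-0.67 and -0.54) with the microglia marker list. It lies to the right of the median of all genes under each of the 7. Apart from the length and GC offsets, these shift all genes by nearly the same amount, so this order could hardly change.

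The V1 sector, where ATP is hydrolysed, was mixed. Against CON, 3 of its 9 genes rose (Atp6v1b2, Atp6v1c1 and Atp6v1h), 2 fell (Atp6v1a and Atp6v1g2) and 4 did not pass. The shares that rose and fell were 33.3% and 22.2%, where 19.8% and 25.2% of all genes did. The median log2 fold change was 0.06, which turned to -0.080 with length and GC offsets and to -0.044 without CON replicate 1. Against MAL, Atp6v1g1, the widely used form of subunit G, rose as well and Atp6v1a did not pass, with a median of 0.24. The shares against MAL were 44.4% and 11.1%, where 20.2% of all genes rose and 24.1% fell. The Atp6v1g1 call (0.29, adjusted p = 0.0214, edgeR) was lost without MAL replicates 1 or 3 (0.22 to 0.33 over the omissions), while Atp6v1d, of the central stalk, passed against MAL without MAL-BG replicates 1, 2, 4 or 7 (0.17 to 0.30). Atp6v1c1 codes for subunit C, which links the stalk of V1 to V0 and is released when the pump comes apart. Its level was 124, 132, 123 and 116 CPM in CON, 107, 118, 110.1, 149 and 123 CPM in MAL, and 143 at the lowest, 174 at the median and 194 CPM at the highest in MAL-BG. The lowest MAL-BG library overlapped the highest MAL library, and the other 6 lay above all CON and MAL libraries. The log2 fold change was 0.47 ± 0.11 (SE, edgeR adjusted p = 0.00278) against CON and 0.50 ± 0.10 (SE, edgeR adjusted p = 0.00119) against MAL.

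Atp6v1h, the regulatory subunit H, and Atp6v1b2, a B subunit of the ATPase head, had similar patterns. The log2 fold change of Atp6v1h was 0.47 against CON and 0.49 against MAL, and that of Atp6v1b2 was 0.35 and 0.33. In each, 6 of 7 MAL-BG libraries exceeded all CON and MAL libraries. Atp6v1f, the rotor subunit F, had the highest level per kb of transcript in the sector, at 122 CPM per kb over the 16 libraries. It had 92.4, 102, 111 and 101 CPM in CON, 75.5, 101, 80.1, 109 and 93.7 CPM in MAL, and 72.6, 104 and 125 CPM as the lowest, median and highest MAL-BG values, so the groups overlapped throughout. Its log2 fold change of -0.02 against CON had a 95% confidence interval from -0.30 to 0.27, but with length and GC offsets it was -0.32 and passed the test (edgeR adjusted p = 0.00901), outside that interval. Atp6v1f shares 14.5% of its 42-base words with another annotated gene and Atp6v1g1 shares 21.2% with 4 others. Reads of these genes could therefore have been split or lost in counting.

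Atp6v1a, the catalytic A subunit, lies at chr16:44085402-44139705 on the minus strand (GRCm38, GENCODE annotation, as for all gene positions below). It had 83.6, 181, 137 and 142 CPM in CON, 94.1, 146, 137, 93.8 and 122 CPM in MAL, and 92.7 to 115 CPM with a median of 101 in MAL-BG. Every MAL-BG value fell within the range of CON, whose 4 libraries spread widely around 136 ± 40.1 CPM (SD, n = 4), while MAL-BG was narrow at 101 ± 7.30 CPM (SD, n = 7). The fall of 0.42 on the log2 scale against CON (standard error 0.17, adjusted p = 0.0456, edgeR) stood close to the threshold and was lost when any of CON replicates 2, 3 or 4 or MAL-BG replicates 1, 2, 4, 5, 6 or 7 was left out, with fold changes from -0.62 to -0.27 over the 16 omissions. Against MAL it was -0.23 (adjusted p = 0.236, edgeR).

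Atp6v1g2, the form of the stator subunit G that is known from neurons, was the member that fell most. The gene lies at chr17:35233660-35238767 on the plus strand, and 144 bases of its exons face exons of Nfkbil1 on the other strand. Its level was 19.3, 27.7, 26.5 and 18.8 CPM in CON, 12.7, 17.7, 15.8, 16.7 and 22.5 CPM in MAL, and 6.77 at the lowest, 9.02 at the median and 11.8 CPM at the highest in MAL-BG. All 7 MAL-BG libraries were below all CON and MAL libraries, and the fall was 1.31 on the log2 scale against CON (standard error 0.17, adjusted p = 4.51e-05, edgeR) and 0.87 against MAL (standard error 0.16, adjusted p = 5.94e-04, edgeR). The direction and the call held under every scaling tried and in all 16 omissions of a library. The neuron markers fell in the same libraries, from 192 to 793 CPM in CON to 59.8 to 146 CPM in MAL-BG, and their part in this fall was not tested.

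**Figure D4:**
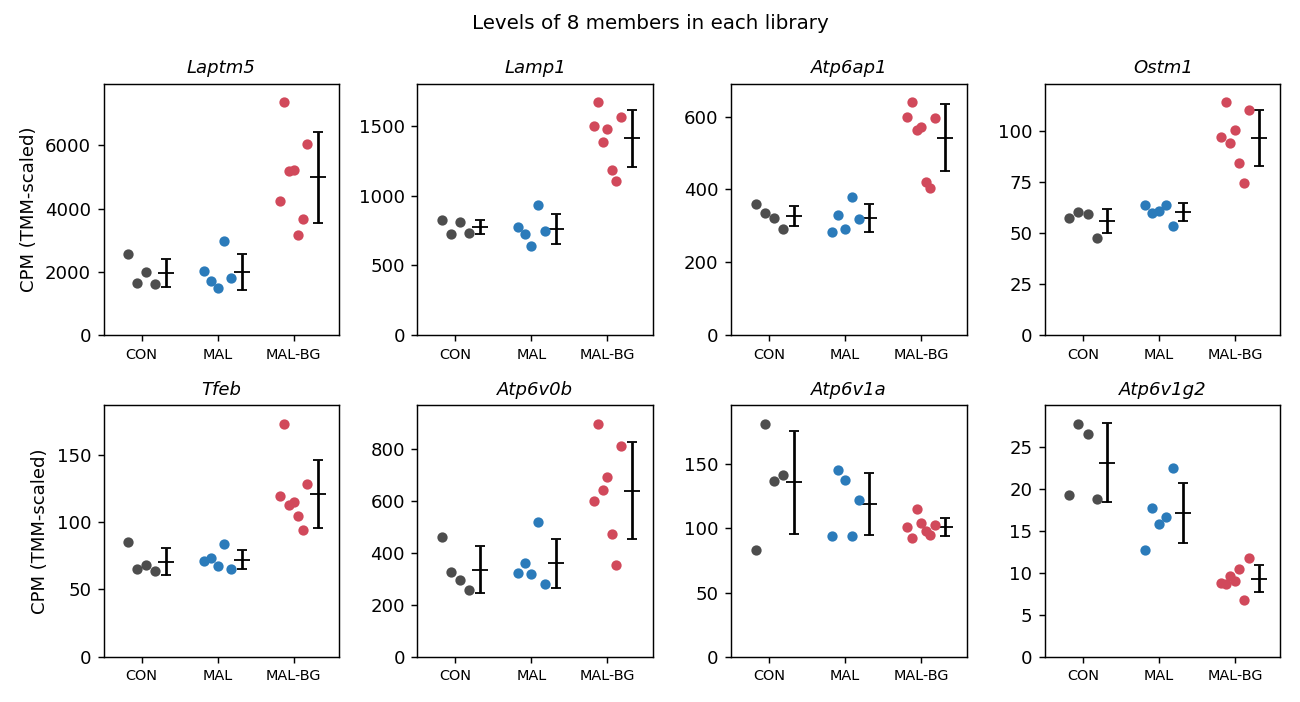
CPM of 8 members (vertical axes, linear, from 0), with a point for each CON (n = 4), MAL (n = 5) and MAL-BG (n = 7) library and black bars for the mean ± SD. Laptm5, Lamp1, Atp6ap1, Ostm1 and Tfeb have all MAL-BG points above the others on this TMM scale, Atp6v0b overlaps, Atp6v1a has MAL-BG points within the range of CON, and Atp6v1g2 has all MAL-BG points below the others. Relative to microglia markers the median change of the members was below 0.

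Paralogs that fill the same position in the complex can be compared inside each library, which no scaling of the library can move. Atp6v1g2 made up 14.7%, 18.1%, 17.5% and 14.4% of the counts on Atp6v1g1 and Atp6v1g2 together in CON, 12.4%, 13.3%, 13.9%, 12.1% and 17.2% in MAL, and 5.55% to 7.96% with a median of 6.60% in MAL-BG. The MAL-BG libraries did not overlap either group. The mean share differed by -9.46 percentage points from CON (two-sided exact permutation test, p = 0.00606, adjusted p = 0.0182 over the 9 share tests) and by -7.11 points from MAL (exact permutation test, p = 0.00253, adjusted p = 0.0114), while MAL and CON, 13.8% ± 2.03 (SD, n = 5) and 16.1% ± 1.91 (SD, n = 4), did not pass (exact permutation test, adjusted p = 0.125).

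The a subunits of V0 steer the pump to its membrane and hold the path of the protons. A further a subunit, Tcirg1, is not among the members and stands outside this share, although it was counted at 672 to 742 CPM in the group means. Atp6v0a2, the form known from the Golgi, made up 47.1% ± 1.73 (SD, n = 4) of the counts on Atp6v0a1 and Atp6v0a2 in CON, 49.8% ± 2.05 (SD, n = 5) for MAL and 44.8% ± 2.06 (SD, n = 7) in MAL-BG. It ranged from 44.9% to 48.5% in CON, from 48.4% to 53.4% in MAL and from 41.9% to 47.7% in MAL-BG, so MAL-BG lay wholly below MAL and overlapped CON. The difference was -4.93 points against MAL (two-sided exact permutation test, adjusted p = 0.0114) and -2.24 points against CON (exact permutation test, adjusted p = 0.125). Lamp2 made up 36.3% ± 3.76 (SD, n = 4) of the counts on Lamp1 and Lamp2 in CON, 36.3% ± 3.11 (SD, n = 5) for MAL and 29.4% ± 5.25 (SD, n = 7) in MAL-BG. MAL-BG replicate 2 had the lowest share at 19.8% and replicate 6 the highest at 37.0%, and the groups overlapped. The difference was -6.93 points against CON (exact permutation test, adjusted p = 0.0714), which passed without MAL-BG replicate 6 at -8.20 points, and -6.87 points against MAL (exact permutation test, adjusted p = 0.0454), and the latter no longer passed when any of MAL replicates 1, 2, 3 or 5 or MAL-BG replicates 1, 2, 3, 4, 5 or 7 was left out (-8.14 to -5.27 points over the omissions). Both genes rose in MAL-BG on the TMM scale.

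**Figure D5:**
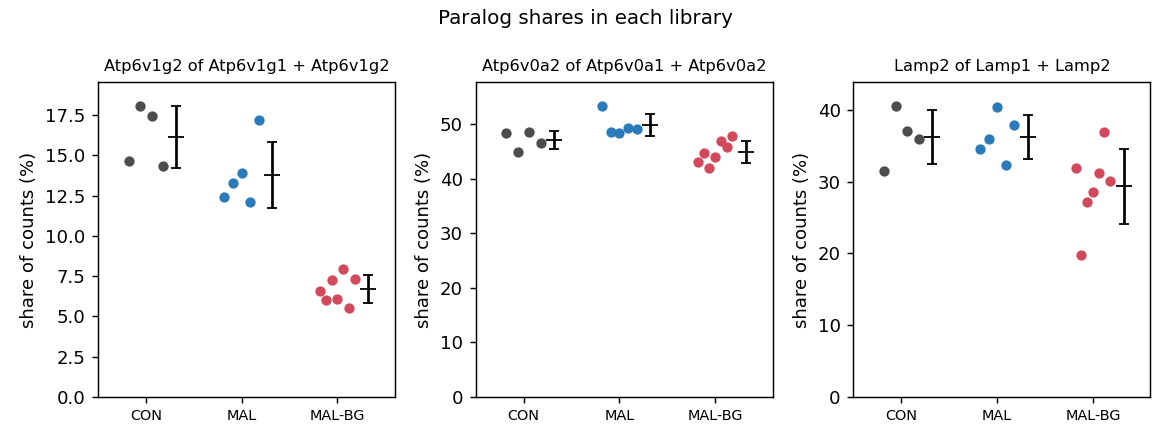
Share of counts (vertical axes, in percent, from 0) of Atp6v1g2, Atp6v0a2 and Lamp2 within their paralog pairs, with a point for each CON (n = 4), MAL (n = 5) and MAL-BG (n = 7) library and black bars for the mean ± SD. The Atp6v1g2 share is 5.55% to 7.96% in MAL-BG and 12.1% or more elsewhere, while the other shares overlap with at least 1 group.

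Of the V0 sector, 3 of 6 tested genes rose against CON and the same 3 against MAL (Atp6v0b, Atp6v0d1 and Atp6v0a1), 0 fell, and the median log2 fold changes were 0.28 and 0.23. The share that rose was 50% in each comparison. Of all genes, 19.8% rose and 25.2% fell against CON, and 20.2% rose and 24.1% fell against MAL. Atp6v0b codes for subunit c'' of the proton-carrying ring and lies at chr4:117884326-117887333 on the minus strand, with 243 bases of its exons facing Gm12841. At 477 CPM per kb over the 16 libraries it had the highest level per length of the pump. Its level was 464, 326, 297 and 259 CPM in CON, 322, 361, 318, 521 and 282 CPM in MAL, and 354 at the lowest, 643 at the median and 898 CPM at the highest in MAL-BG. Replicates 5 and 6 of MAL-BG overlapped the highest MAL library, and the other 5 lay above all CON and MAL libraries. Atp6v0b rose on the log2 scale by 0.93 ± 0.24 (SE, edgeR adjusted p = 0.00535) against CON and 0.83 ± 0.22 (SE, edgeR adjusted p = 0.00673) against MAL.

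Atp6v0e, a small subunit of the membrane sector, had 95.6, 123, 111 and 93.7 CPM in CON, 78.0, 102, 93.9, 96.4 and 96.3 CPM in MAL, and 86.0, 107 and 122 CPM as the lowest, median and highest MAL-BG values. The groups overlapped, and the log2 fold change of -0.01 against CON had a 95% confidence interval from -0.24 to 0.23. Atp6v0d1, the d subunit that joins the ring to the central stalk, had log2 fold changes of 0.25 (adjusted p = 0.0427, edgeR) against CON and 0.26 (adjusted p = 0.0259, edgeR) against MAL. Both were lost with length and GC offsets, at 0.0015 and -0.020. The first was also lost when any CON or any MAL library or MAL-BG replicate 5 was left out (0.18 to 0.32 over all omissions), and the second without MAL replicates 1, 3, 4 or 5 or MAL-BG replicate 5 (0.22 to 0.32). Atp6v0a1 had log2 fold changes of 0.44 and 0.48, the first lost without CON replicates 2, 3 or 4 or MAL-BG replicate 2 (0.35 to 0.60), and Atp6v0a2 had 0.30 (adjusted p = 0.156) and 0.19 (adjusted p = 0.332). Without CON replicate 1, Atp6v0a2 passed against CON at 0.50.

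Atp6v0c, which codes for the main proteolipid of the ring, was counted at 0.460 to 0.866 CPM in CON, 0.483 to 1.12 CPM in MAL and 0.297 to 1.57 CPM in MAL-BG, far below the other tested V0 genes. Of its 42-base words 33.6% also occur in 2 other annotated genes, most often in the pseudogene Atp6v0c-ps2, so its counts are uncertain. The log2 fold change of 0.11 against CON had a 95% confidence interval from -0.83 to 1.06, and a difference was not detectable at this depth. Summed over the tested genes per kb of transcript, the V1 sector was at 556 ± 58.3 CPM per kb (SD, n = 4) for CON, 513 ± 49.5 (SD, n = 5) for MAL and 599 ± 55.8 (SD, n = 7) in MAL-BG. The V0 sum was 523 ± 105 CPM per kb (SD, n = 4) for CON, 543 ± 105 (SD, n = 5) for MAL and 864 ± 204 (SD, n = 7) in MAL-BG, of which Atp6v0b alone made up 337, 361 and 639.7 CPM per kb. No test was run on these sums.

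Both accessory proteins rose against both groups with TMM, Atp6ap2 against CON not under every method. Of all genes, 19.8% rose against CON and 20.2% against MAL. Atp6ap1, also called Ac45, helps to assemble V0, and it was among the members without overlap. Its level was 359.7, 335, 321 and 292 CPM in CON, 283, 328, 291, 380.2 and 319.9 CPM in MAL, and 403, 571 and 639 CPM as the lowest, median and highest MAL-BG values. Atp6ap1 had a log2 fold change of 0.73 ± 0.14 (SE, edgeR adjusted p = 6.72e-04) against CON and 0.76 ± 0.13 (SE, edgeR adjusted p = 3.08e-04) against MAL. Atp6ap2, the (pro)renin receptor, had 192, 313, 257 and 201 CPM in CON, 167, 234, 221, 185 and 228 CPM in MAL, and 250.5 to 423 CPM with a median of 359 in MAL-BG. All 7 MAL-BG libraries exceeded the 5 MAL libraries and 2 of 7 overlapped CON. Its log2 fold change was 0.54 (adjusted p = 0.0201, edgeR) against CON, lost without CON replicates 1 or 4 (0.43 to 0.67 over the omissions), with length and GC offsets (0.31, adjusted p = 0.193) and with library totals (0.41, adjusted p = 0.0775), and 0.76 (adjusted p = 0.00176, edgeR) against MAL.

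Lysosomal membrane glycoproteins and LAPTM proteins had a median log2 fold change of 0.60 against CON and 0.62 against MAL on the TMM scale, which came to 0.35 and 0.39 with length and GC offsets. Of its 7 genes, 5 (71.4%) rose against CON and 6 (85.7%) against MAL, and 0 fell. The shares of all genes were 19.8% rising and 25.2% falling against CON, and 20.2% and 24.1% against MAL. Laptm5, a lysosomal protein of blood-forming and myeloid cells that lowers antigen receptors and other signalling proteins at the surface, lies at chr4:130913125-130936141 on the plus strand. It had 2571, 1645, 1987 and 1612 CPM in CON, 2029.6, 1702, 1503, 2964 and 1794 CPM in MAL, and 3175 at the lowest, 5179.9 at the median and 7363 CPM at the highest in MAL-BG. No MAL-BG library overlapped the others, although MAL replicate 4 came near. Its log2 fold change of 1.35 ± 0.25 (SE, edgeR adjusted p = 4.82e-04) against CON and 1.32 ± 0.23 (SE, edgeR adjusted p = 3.26e-04) against MAL was the largest of the members, and it had the highest level per length, at 1267 CPM per kb. With library sizes set by microglia markers it was the 1 member that stayed above 0, at 0.34 (adjusted p = 0.0719, edgeR) and 0.41 (adjusted p = 0.027, edgeR).

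Lamp1, together with LAMP2 the most abundant protein of the lysosomal membrane, lies at chr8:13159161-13175338 on the plus strand, with part of its exons facing Grtp1 on the other strand. It had 824, 728, 808 and 733 CPM in CON, 775, 724, 638, 929 and 746 CPM in MAL, and 1101, 1476 and 1668 CPM as the lowest, median and highest MAL-BG values. The groups did not overlap, and Lamp1 rose on the log2 scale by 0.87 ± 0.14 (SE, edgeR adjusted p = 1.64e-04) against CON and 0.89 ± 0.13 (SE, edgeR adjusted p = 7.94e-05) against MAL. Lamp2, which also serves chaperone-mediated autophagy, rose by less, with log2 fold changes of 0.40 and 0.44, the first lost without CON replicates 1 or 4 (0.32 to 0.53).

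Laptm4a, a protein of late endosomes, had the smallest fold change of this group. Its values were 427, 476, 456 and 452 CPM in CON, 397, 469, 426, 421 and 427 CPM in MAL, and 356 to 638 CPM with a median of 507 in MAL-BG. In MAL-BG, replicate 2 was below all other libraries and the other 6 were above all of CON and MAL. The log2 fold change was 0.16 (adjusted p = 0.315, edgeR) against CON and 0.24 (adjusted p = 0.102, edgeR) against MAL, and without MAL-BG replicate 2 it passed in both, at 0.29 and 0.36. Cd68, a scavenger glycoprotein used as a marker of phagocytic cells, had its highest value, 709 CPM, and its lowest, 242 CPM, both in MAL-BG. Its log2 fold changes were 0.61 (adjusted p = 0.0463, edgeR) and 0.62 (adjusted p = 0.0306, edgeR). With length and GC offsets both were lost, at 0.35 and 0.32. The first was also lost without any CON or any MAL library or MAL-BG replicates 1, 5 or 6 (0.53 to 0.75), and the second without MAL replicates 1, 2, 3 or 5 or MAL-BG replicates 1, 5 or 6 (0.53 to 0.76).

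The remaining members of this group were Tmem192 and Cd63. Tmem192, a membrane protein used to tag lysosomes for isolation, had log2 fold changes of 0.60 (adjusted p = 0.0122, edgeR) and 0.65 (adjusted p = 0.00509, edgeR), the first lost with length and GC offsets (0.34, adjusted p = 0.0742). Cd63, a tetraspanin of lysosomes and exosomes, had 0.29 (adjusted p = 0.156, edgeR) against CON and 0.48 (adjusted p = 0.0169, edgeR) against MAL, the call against MAL was lost without MAL replicate 1 at 0.38, and without MAL-BG replicate 6 it also passed against CON at 0.37. Cd63 shares 41.4% of its 42-base words with the pseudogene Cd63-ps, so its counts are uncertain.

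The 3 genes of sterol export and lipid transfer rose against both groups, where 19.8% of all genes rose against CON and 20.2% against MAL. Npc2, the soluble protein that lifts cholesterol inside the lysosome and hands it to NPC1, had 552, 553, 569 and 509 CPM in CON, 476, 512, 449, 627 and 531 CPM in MAL, and 630.4, 786 and 918 CPM as the lowest, median and highest MAL-BG values. The MAL-BG libraries did not overlap the others, by a narrow gap to MAL replicate 4, and the log2 fold changes were 0.48 (adjusted p = 0.00623, edgeR) and 0.55 (adjusted p = 0.0016, edgeR). Npc1, the membrane protein that passes cholesterol out, had 151, 141, 153 and 131 CPM in CON, 160.4, 129.8, 124, 156 and 147 CPM in MAL, and 144 to 239 CPM with a median of 177 in MAL-BG. Its groups overlapped. Its log2 fold changes were 0.36 (adjusted p = 0.0368, edgeR), lost without any CON or any MAL library or MAL-BG replicates 1, 5 or 6 (0.29 to 0.46), and 0.36 (adjusted p = 0.025, edgeR), lost without MAL replicates 2, 3 or 5 (0.29 to 0.45). Scarb2, also called LIMP-2, which carries glucocerebrosidase to the lysosome, was without overlap at 103 to 124 CPM over CON and MAL and 130.1 to 183 CPM in MAL-BG, with log2 fold changes of 0.46 and 0.45.

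Among the 5 channels and transporters, 4 (80%) rose against CON and 3 (60%) against MAL, and 0 fell. The shares of all genes were 19.8% rising and 25.2% falling against CON, and 20.2% and 24.1% against MAL. Ostm1 codes for the partner that stabilizes the chloride and proton exchanger ClC-7, and it lies at chr10:42583822-42702459 on the plus strand, with 410 bases of its exons facing Gm15200. It had 57.3, 60.2, 59.2 and 47.4 CPM in CON, 63.8, 59.7, 60.9, 63.9 and 53.5 CPM in MAL, and 74.8, 97.2 and 114 CPM as the lowest, median and highest MAL-BG values. The groups did not overlap, and the log2 fold changes were 0.78 ± 0.12 (SE, edgeR adjusted p = 1.17e-04) and 0.68 ± 0.11 (SE, edgeR adjusted p = 1.87e-04).

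Clcn7, which codes for ClC-7 itself, had 105, 66.5, 69.3 and 64.7 CPM in CON, 93.1, 74.8, 73.3, 96.6 and 68.5 CPM in MAL, and 64.1, 84.0 and 103 CPM as the lowest, median and highest MAL-BG values. The groups overlapped throughout, and the log2 fold changes of 0.16 and 0.07 had 95% confidence intervals from -0.17 to 0.48 and from -0.24 to 0.37. The difference between Ostm1 and Clcn7 in their response was not tested. Mcoln1, the calcium channel TRPML1, had the highest level per length of the group. Its values were 69.8, 46.5, 46.2 and 46.1 CPM in CON, 55.7, 51.9, 52.5, 61.9 and 52.0 CPM in MAL, and 44.7 to 109.6 CPM with a median of 78.3 in MAL-BG, where replicate 6 was below all CON and MAL libraries and 4 of 7 were above them all. The log2 fold change was 0.54 (adjusted p = 0.0438, edgeR) against CON, lost without CON replicates 2, 3 or 4, MAL replicates 1, 2, 3 or 5 or MAL-BG replicates 2, 3 or 7 (0.47 to 0.69), and 0.47 (adjusted p = 0.0576, edgeR) against MAL, where it passed without CON replicate 1 or MAL-BG replicates 5 or 6 (0.40 to 0.56). It also passed against MAL with DESeq2 size factors (0.50, adjusted p = 0.0489), with the DESeq2 test (0.50, adjusted p = 0.0359) and with length and GC offsets (0.61, adjusted p = 0.0172), so a call against CON alone depends on the method.

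The solute exporters Ctns, for cystine, and Slc17a5, for sialic acid, rose against both groups. Ctns had log2 fold changes of 0.57 (adjusted p = 0.00993, edgeR) and 0.41 (adjusted p = 0.0395, edgeR), the second lost without MAL replicates 1, 2, 3 or 5 or MAL-BG replicates 1, 2, 4, 6 or 7 (0.33 to 0.51) and with length and GC offsets (0.31, adjusted p = 0.108). Slc17a5 had 0.50 (adjusted p = 0.0037, edgeR) and 0.36 (adjusted p = 0.017, edgeR). Both calls held in all 16 omissions, and the second was lost with length and GC offsets (0.28, adjusted p = 0.0809) and with library totals (0.22, adjusted p = 0.0746).

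Of the MiT/TFE factors, Tfeb rose under TMM and the others did not pass, although Tfe3 passed under other settings. Tfeb, the best known activator of lysosomal genes, lies at chr17:47737030-47792419 on the plus strand. It had 85.3, 65.1, 67.8 and 64.0 CPM in CON, 71.3, 73.1, 67.8, 83.7 and 65.3 CPM in MAL, and 94.0 at the lowest, 115 at the median and 173 CPM at the highest in MAL-BG. No MAL-BG library overlapped the others, and Tfeb rose on the log2 scale by 0.78 ± 0.15 (SE, edgeR adjusted p = 5.57e-04) against CON and 0.74 ± 0.13 (SE, edgeR adjusted p = 4.52e-04) against MAL. TFEB is held in check mainly by phosphorylation and by where it stands in the cell, and mRNA counts do not show either.

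Tfe3 had the highest level per length of the factors, 57.6 CPM per kb against 39.7 for Tfeb and 9.58 for Mitf over the 16 libraries. It had 218, 179, 189 and 167 CPM in CON, 179, 156, 145, 213 and 173 CPM in MAL, and 154, 222 and 246 CPM as the lowest, median and highest MAL-BG values, with overlap. Its log2 fold changes were 0.19 (adjusted p = 0.25, edgeR) and 0.31 (adjusted p = 0.0501, edgeR), and the second passed without MAL replicate 4 or MAL-BG replicate 3 (0.25 to 0.39), with DESeq2 size factors (0.34, adjusted p = 0.04) and with the DESeq2 test (0.34, adjusted p = 0.0247). With length and GC offsets Tfe3 passed against both CON (0.48, adjusted p = 0.0131) and MAL (0.56, adjusted p = 0.00338). Mitf had 52.8, 62.3, 48.0 and 39.0 CPM in CON, 42.3, 57.4, 51.2, 43.4 and 50.7 CPM in MAL, and 36.5, 40.5 and 57.3 CPM as the lowest, median and highest MAL-BG values. These overlapped, at log2 fold changes of -0.23 (adjusted p = 0.19, edgeR) and -0.19 (adjusted p = 0.253, edgeR), and without MAL-BG replicate 6 Mitf passed against CON at -0.32.

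MAL versus CON gave 0 calls among 35 members and 0 among 14565 genes (0%) in edgeR, and DESeq2 called 0 members too. An unadjusted p under 0.05 was reached by 1 member in edgeR. The log2 fold changes of the members ran from -0.43 for Atp6v1g2 to 0.17 for Ctns, with a median of -0.03, and 12 were above 0 and 23 below. Atp6v1g2 was the member with the unadjusted p under 0.05, and its 95% confidence interval ran from -0.83 to -0.04.

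Other genes of the same machinery were taken from lists beside the members. Of 9 other vacuolar ATPase genes, 3 had enough counts to test. Against CON 0 of the 3 rose or fell, and against MAL Rnasek, a pump-associated membrane protein, rose by 0.58. Tcirg1, the a3 subunit of osteoclasts and immune cells, was at 672 CPM in CON, 728 CPM in MAL and 742 CPM in MAL-BG and had log2 fold changes of 0.14 and 0.03. Of 13 genes of pump assembly and regulation, 4 rose and 3 fell against CON, and 4 rose and 4 fell against MAL. Against CON these were 30.8% and 23.1%, where 19.8% of all genes rose and 25.2% fell. Against MAL both were 30.8%, where 20.2% of all genes rose and 24.1% fell. The largest changes past the test were those of Wdr72 (-2.84 against CON, from 8.26 to 1.15 CPM) and Dmxl2 (-1.25, from 64.7 to 27.2 CPM), which codes for a rabconnectin that helps V1 rejoin V0.

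Among 38 tested genes of other lysosomal membrane proteins, 13 rose and 6 fell against CON, and 13 rose and 5 fell against MAL, with median log2 fold changes of 0.16 and 0.07. Against CON the shares that rose and fell were 34.2% and 15.8%, where 19.8% and 25.2% of all genes did. Against MAL they were 34.2% and 13.2%, where 20.2% and 24.1% of all genes did. The largest changes past the test were those of Lamp5 (-2.97, from 1.19 to 0.152 CPM), a LAMP family protein known from neurons, and Abca2 (-1.62, from 150.4 to 48.7 CPM), a lipid transporter abundant in oligodendrocytes. Lamp5 had very few counts in MAL-BG, so the size of its change is uncertain. Neuron markers fell in the same libraries, and their part in the fall of Lamp5 was not tested. Of 14 relatives and regulators of the MiT/TFE factors, 1 rose and 2 fell against CON, and 2 rose and 2 fell against MAL. Against CON these were 7.14% and 14.3%, both below the shares of all genes (19.8% and 25.2%). Against MAL both were 14.3%, where 20.2% of all genes rose and 24.1% fell. The 2 with the largest change against CON were Rragd (-2.20, from 33.3 to 7.26 CPM), a Rag GTPase that brings mTORC1 and TFEB to the lysosome, and Mtor (-0.97, from 55.4 to 28.3 CPM), the kinase that phosphorylates TFEB. Ppp3ca, a catalytic subunit of calcineurin, the phosphatase that acts on TFEB, rose by 0.69.

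Certain libraries stood at the edge of their group in many members at once. MAL-BG replicate 6 was the lowest of its group in 18 of 35 members and replicate 2 the highest in 15. MAL replicate 4 was the highest MAL library in 22 members, and it also had the highest microglia sum (35220 CPM) and the lowest choroid plexus sum (5099 CPM) of the 9 CON and MAL libraries. CON replicate 4 was the lowest CON library in 19 members. The median coefficient of variation of the members was 13.2% for CON, 13.01% for MAL and 16.4% for MAL-BG. Without MAL-BG replicates 3 and 5, which had the lowest microglia sums of their group, 22 of the 23 calls against CON and 23 of 23 against MAL stood.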

How the data were processed

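RNA from CD11b+ cells of 16 mice was sequenced. The authors aligned reads with STAR to GRCm38 and counted them per gene with HTSeq, and the deposited table holds these counts, unnormalized, for 24421 gene names (27 look like dates). The strand setting of the counting was not given in the sources used here. Column names give group and a running number that matches no sample title, so replicate numbers only name libraries, and the labels and column names give no batch. Code in the study's supplement fits batch beside condition, so the study recorded a batch. No source used here ties libraries to that batch, so it was left out of the model here. Its part in the group differences could therefore not be tested. Members, lists and tests were chosen with earlier results of these data known.

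The 14565 genes that exceeded 10 counts in 4 or more of the 16 libraries were fitted over all 3 groups with edgeR 4.0.16 (R 4.3.3) by the quasi-likelihood test with TMM scaling and Benjamini-Hochberg adjustment, without covariates. Calls took an adjusted p under 0.05, and DEGs also an absolute log2 fold change over 0.58. P-values measure the spread between mice. Library totals were 10312703 to 18705202 counts. Paralog shares and marker sums were compared with two-sided exact permutation tests (scipy 1.17.1), whose smallest p is 0.00606 for 7 against 4 and 0.00253 for 7 against 5. CPM per kb used the longest coding transcript of the annotation. The steps were tested on simulated data: of 200 genes changed among 14440 in MAL-BG versus CON, 151 were called, each with the right sign. Of the unchanged genes, 6 were called. The 200 genes were all changed by the same amount on the log2 scale, up or down. That amount exceeded the fold change of every member with TMM, so the result does not tell how often smaller changes are called. Replicate libraries differed by more than sampling noise (smallest chi-square per degree of freedom 10.04). Named genes are the members and, of each other list, those with the largest change past the test, with additions named for their role after values were seen. Alternatives were other scalings, filters, DESeq2 1.42.0, length and GC offsets, thinning, 2-group fits and omission of each library.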

Additional observations from a re-analysis of the deposited data

Results flagged for a closer look

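In 7 of 105 tests of a member within a group (6.67%), 1 library stood further from the others than Dixon's 95% limit allows, and chance flags about 1 in 20 groups. Each was the highest of its group. Atp6v0a1 was at 244 CPM in MAL replicate 4, where the other 4 MAL libraries had 185 to 189 CPM, and at 398 CPM in MAL-BG replicate 2, where the other 6 had 221 to 281 CPM. Atp6v0a2 was at 321 CPM in the same MAL-BG replicate 2, with 189.5 to 232 CPM in the others. Atp6v0d1 was at 111 CPM in MAL replicate 2, with 98.3 to 101 CPM in the others. Tmem192 was at 17.2 CPM in MAL replicate 4, with 10.98 to 12.7 CPM in the others. In CON replicate 1, Mcoln1 was at 69.8 CPM and Clcn7 at 104.9 CPM, where the other 3 CON libraries had 46.1 to 46.5 and 64.7 to 69.3 CPM.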

How the results depend on the processing

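No paired analysis was possible because the numbers in the column names match no sample title, so the replicate block was not run. Against CON, 15 of the 23 calls stood in all 16 omissions of a library, 23 with the DESeq2 test, and 13 under everything but scaling by microglia markers. Against MAL these were 17, 23 and 14 of 23. With library sizes set by microglia markers, 0 members rose, 26 fell, 0 were higher and 20 lower DEGs, and the median was -0.67 against CON, with 1, 25, 0, 16 and -0.54 against MAL. Of the 14565 genes tested, 11081 were lower DEGs against CON and 10510 against MAL with that scaling. With library totals, 13 rose in each comparison, with medians of 0.27 and 0.27. Scaling by the mean log2 CPM gave 20 and 19 higher DEGs and medians of 0.66 and 0.62, and the share of higher genes among all DEGs went from 34.4% and 33.4% to 57.8% and 58.3%, or to 22.5% and 20.1% with library totals. With length and GC offsets on top of the mean log2 CPM there were 20 and 18 higher DEGs, with medians of 0.63 and 0.59. Without a fold threshold there were 21 and 22 higher DEGs, and 2 lower against CON. The count that fell against CON was 1 with DESeq2 size factors, the mean log2 CPM with or without offsets, no count filter, and without MAL-BG replicates 3 and 5, an omission chosen after seeing the data. Over single omissions it was 1 to 2, as was the count of lower DEGs, those that rose numbered 14 to 21 against CON and 17 to 23 against MAL, and the Lamp2 share differed by -8.53 to -5.33 points from CON, by -8.14 to -5.27 from MAL and, between MAL and CON, by -1.66 to 1.38. Taken as the mean log2 CPM of a marker list, differences were -2.22 for choroid plexus and -1.17 for ependyma against MAL, 2.74 and 2.54 for neutrophils against CON and MAL, which then passed, and -0.54 for monocytes against CON and 0.23 for lymphocytes against MAL, which no longer passed. Between MAL and CON they turned to 0.013 for astrocytes and 0.39 for monocytes. The cause of these changes was not tested.

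Single members changed sign as follows, as log2 fold changes. Under microglia markers there were -0.72 for Atp6v1b2, -0.59 for Atp6v1c1, -1.01 for Atp6v1d, -0.93 for Atp6v1g1, -0.59 for Atp6v1h, -0.57 for Atp6v0a1, -0.70 for Atp6v0a2, -0.084 for Atp6v0b, -0.91 for Atp6v0c, -0.81 for Atp6v0d1, -0.31 for Atp6ap1, -0.53 for Atp6ap2, -0.18 for Lamp1, -0.67 for Lamp2, -0.76 for Cd63, -0.43 for Cd68, -0.90 for Laptm4a, -0.47 for Tmem192, -0.69 for Npc1, -0.57 for Npc2, -0.59 for Scarb2, -0.47 for Mcoln1, -0.43 for Ctns, -0.53 for Slc17a5, -0.86 for Clcn7, -0.26 for Ostm1, -0.25 for Tfeb and -0.84 for Tfe3 against CON, and -0.63 for Atp6v1b2, -0.46 for Atp6v1c1, -0.74 for Atp6v1d, -0.86 for Atp6v1e1, -0.83 for Atp6v1f, -0.67 for Atp6v1g1, -0.47 for Atp6v1h, -0.46 for Atp6v0a1, -0.75 for Atp6v0a2, -0.11 for Atp6v0b, -0.71 for Atp6v0d1, -0.80 for Atp6v0e, -0.20 for Atp6ap1, -0.23 for Atp6ap2, -0.054 for Lamp1, -0.54 for Lamp2, -0.49 for Cd63, -0.33 for Cd68, -0.74 for Laptm4a, -0.30 for Tmem192, -0.59 for Npc1, -0.40 for Npc2, -0.51 for Scarb2, -0.49 for Mcoln1, -0.54 for Ctns, -0.60 for Slc17a5, -0.88 for Clcn7, -0.29 for Ostm1, -0.21 for Tfeb and -0.63 for Tfe3 against MAL. With library totals these were -0.072 for Atp6v1d, -0.0063 for Atp6v1g1 and -0.0056 for Atp6v0c against CON, and -0.026 for Atp6v1e1, -0.010 for Atp6v1f and -0.071 for Clcn7 against MAL. Under length and GC offsets there were -0.029 for Atp6v1d, -0.16 for Atp6v1g1 and -0.073 for Laptm4a against CON, and -0.20 for Atp6v1f, -0.015 for Atp6v1g1, -0.020 for Atp6v0d1 and -0.011 for Laptm4a against MAL. With DESeq2 size factors these were 0.0046 for Atp6v1e1, 0.0059 for Atp6v1f and 0.010 for Atp6v0e against CON, and 0.0048 for Atp6v0c against MAL. Under the mean log2 CPM there were 0.24 for Atp6v1e1, 0.23 for Atp6v1f, 0.24 for Atp6v0e and 0.018 for Mitf against CON, and 0.21 for Atp6v0c and 0.045 for Mitf against MAL. With the DESeq2 test these were 0.0047 for Atp6v1e1, 0.0057 for Atp6v1f and 0.011 for Atp6v0e against CON, and 0.0097 for Atp6v0c against MAL. Under no count filter there were 0.00028 for Atp6v1e1, 0.0014 for Atp6v1f and 0.0081 for Atp6v0e against CON. With offsets and the mean log2 CPM together these were 0.18 for Atp6v1e1, 0.14 for Atp6v0e and 0.098 for Mitf against CON, and 0.076 for Atp6v1a, 0.13 for Atp6v0c and 0.14 for Mitf against MAL. Under MAL-BG replicates 3 and 5 left out there were 0.012 for Atp6v1f and -0.14 for Atp6v0c against CON. Over single omissions, Atp6v1d against CON ran from -0.044 to 0.18, Atp6v1e1 against CON ran from -0.16 to 0.064, Atp6v1f against CON ran from -0.078 to 0.049, Atp6v0c against CON ran from -0.18 to 0.32, Atp6v0e against CON ran from -0.074 to 0.077 and Atp6v0c against MAL ran from -0.31 to 0.18.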
